A study of Mus musculus with 6 samples.

Results

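Serum exosomes were examined for the miRNAs of 2 loci that are highly transcribed in developing red cells, the miR-486 locus and the miR-144 and miR-451a cluster. The members were the 7 rows of the deposited count table named mmu-miR-486a-5p, mmu-miR-486b-5p, mmu-miR-486a-3p, mmu-miR-486b-3p, mmu-miR-451a, mmu-miR-144-5p and mmu-miR-144-3p, out of 1982 rows in all. miR-486a-5p and miR-486b-5p carried the same count in every mouse, so they were used as a single row named miR-486-5p, which leaves 6 distinct rows. Exosomes are small vesicles that cells release, and they were pelleted from heart-puncture serum of 6 male C57BL/6 mice aged 3 months. Mice 1, 2 and 3 were sham animals with needles but no current, and mice 4, 5 and 6 received Acu/LFES (acupuncture with low-frequency electrical stimulation) on the hindlimb in a single session of 30 min. Each mouse gave its own small RNA library, and the time between treatment and blood collection was not stated for the sequenced mice.

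A miRNA gene is transcribed as a hairpin, from which Drosha and Dicer usually release a 5p and a 3p strand. The strand that Argonaute keeps guides silencing of mRNAs through its seed, the bases near the 5′ end, and the other strand is mostly lost. The miR-144 and miR-451a cluster is switched on by GATA1 in erythroid cells, and miR-451a is unusual in that Argonaute 2 rather than Dicer cuts its short hairpin, so that no separate 3p strand forms. miR-486 lies within Ank1, the gene of the red-cell membrane protein ankyrin 1, and is made in skeletal and heart muscle as well as in red cells. miR-451a and miR-486-5p are among the most abundant miRNAs of mature red cells, and both rise in serum when red cells break.

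The mature sequences of the miR-144 and miR-451a cluster are shown because the 2 strands of miR-144 were counted very unequally in these libraries. They were taken from RefSeq on GRCm38.p6, where 3 of the 7 members were matched, and capitals mark the seed, bases 2 to 8 from the 5′ end. miR-451b, which is no member, is included because it comes from the opposite strand of the same hairpin.
mmu-miR-451a: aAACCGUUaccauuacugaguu
mmu-miR-144-5p: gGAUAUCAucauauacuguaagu
mmu-miR-144-3p: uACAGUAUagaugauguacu
mmu-miR-451b: uGGGAGCAgcaagagaaccgu
The whole Mir451a hairpin is given once, with the mature miRNA in capitals at its bases 17 to 38 of 72, which run from the 5′ arm into the loop.
Mir451a: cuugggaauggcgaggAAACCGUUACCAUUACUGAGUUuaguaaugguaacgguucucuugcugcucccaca
The 4 seeds differ from each other, and 0 of the other mature mouse miRNAs in the RefSeq table, which holds 1679 in all, carried any of them in full. A shorter match, over bases 2 to 7, was looked for with miR-144-3p alone. It was found in miR-101a-3p, with the shared bases in capitals here.
mmu-miR-101a-3p: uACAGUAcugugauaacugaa

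On chromosome 11 of GRCm38, mature miR-144-5p spans chr11:78073010-78073032, miR-144-3p chr11:78073047-78073066 and miR-451a chr11:78073186-78073207, all on the plus strand. miR-451b spans chr11:78073219-78073239 on the minus strand, and shares 0 positions with mature miR-451a. In the GENCODE M21 annotation the Mir144 hairpin ends 99 bases before the Mir451a hairpin begins, and neither overlaps a protein-coding gene. The nearest coding gene is Eral1, which lies on the minus strand 135 bases beyond Mir451a. Mir486 occupies chr8:23142555-23142682 on the plus strand, in an intron of Ank1. Mir3107, which RefSeq also calls mir-486b, occupies chr8:23142573-23142662 on the minus strand, so that the hairpins overlap on opposite strands, and both also lie in an intron of the antisense gene Gm15816.

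The libraries held between 252344 and 1038878 counts once the shared miR-486-5p row was used a single time, with mouse 3 the shallowest and mouse 4 the deepest. A miRNA with 3 counts, taken as the floor of detection, stood at between 2.73 and 14.8 normalized CPM (read counts scaled to a common library size with TMM factors). TMM factors, which edgeR sets so that most miRNAs do not change, ran from 0.7487 in mouse 2 to 1.75 in mouse 6. All libraries shared a single sequencing lane and no batch is named. Every pair of libraries differed by more than sampling noise.

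miR-486-5p, the guide strand of miR-486, was the most counted miRNA in all 6 mice. Its share of the counts was 44.63%, 58.69% and 55.23% for sham mice 1, 2 and 3, and 44.78%, 58.09% and 17.07% for Acu/LFES mice 4, 5 and 6. Mouse 6 stood far below the other 5 mice, and mice 4 and 5 lay within the sham range. The next most counted miRNA in mouse 6 was miR-25-3p, another red-cell miRNA, at 8.665%. The mean share was 52.85% ± 7.32 in sham and 39.98% ± 20.93 in Acu/LFES (SD, n = 3 each), a difference of -12.87 percentage points (two-sided exact permutation test, p = 0.5, adjusted p = 0.9 over 9 shares and ratios). With 3 mice against 3 this test cannot go below 0.1. Without mouse 6 the difference was -1.41 points. Put another way, there were 0.806, 1.42 and 1.23 reads of miR-486-5p per read of all other miRNAs for sham mice 1, 2 and 3, and 0.811, 1.39 and 0.206 for Acu/LFES mice 4, 5 and 6.

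The 3p strand of miR-486 was far less counted, and in mouse 6 its gap to the other mice was smaller than that of the 5p strand. The rows of miR-486a-3p and miR-486b-3p held nearly but not exactly the same counts, as miR-486b-3p exceeded miR-486a-3p by between 24 and 86 reads in each mouse. Most of their reads may therefore be listed in both rows, and how the authors' counting shared them is not given in the sources used here. The counts of miR-486a-3p were 1633, 1493 and 1242 for sham mice 1, 2 and 3 and 3767, 1585 and 2359 for Acu/LFES mice 4, 5 and 6. As a share of all counts, miR-486a-3p ran from 0.360% in mouse 2 to 0.534% in mouse 6. These shares move with that of miR-486-5p in the total. With miR-486-5p left out of the total, miR-486a-3p took 0.683%, 0.870% and 1.10% under sham against 0.657%, 0.947% and 0.644% under Acu/LFES, and mouse 6 was then the lowest of the 6 mice by a small margin. There were 118, 163 and 112 reads of miR-486-5p per read of miR-486a-3p for sham mice 1, 2 and 3. In Acu/LFES mice 4 and 5 there were 123.5 and 146.3, within the sham range, and in mouse 6 there were 32.0.

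On the log2 scale, with the a and b rows of the 3p strand added, the ratio of 5p to 3p was 6.00 ± 0.29 in sham and 5.36 ± 1.21 in Acu/LFES (SD, n = 3 each; two-sided exact permutation test, p = 0.6, adjusted p = 0.9). Adding the rows counts the shared reads in both, and with the miR-486a-3p row alone the means were 7.01 and 6.38. The difference of -0.64 between the groups turned to 0.053 without mouse 6, so it rested on that mouse.

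**Figure D1:**
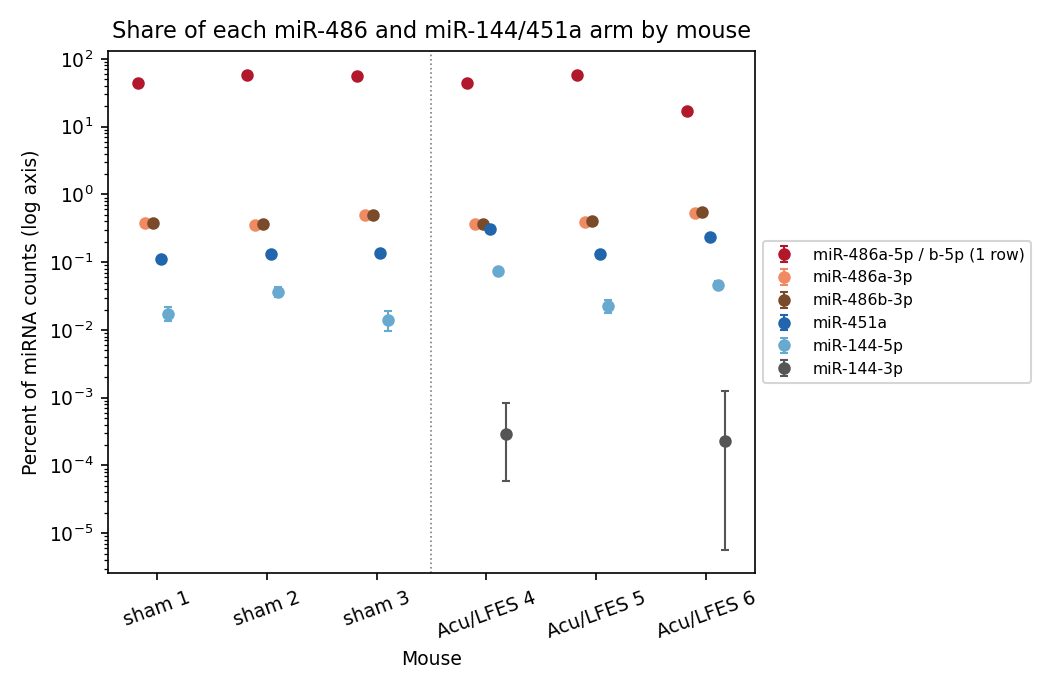
Percent of miRNA counts (log axis) taken by each arm of miR-486 and miR-144 and miR-451a in each mouse, with exact 95% intervals that cover counting error only; a count of 0 is not drawn, which leaves miR-144-3p with points in mice 4 and 6 alone. miR-486-5p stood at 17.07% in Acu/LFES mouse 6 against 44.63% to 58.69% in the other mice, while miR-486a-3p stayed between 0.360% and 0.534%.

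miR-451a, the hallmark miRNA of red cells, was a minor species in these libraries. Its counts were 479, 557 and 345 for sham mice 1, 2 and 3 and 3179, 535 and 1031 for Acu/LFES mice 4, 5 and 6, which ranked it between 40 and 57 among the miRNAs of a mouse. Its share was 0.111%, 0.134% and 0.137% for sham. For Acu/LFES its share was 0.306%, 0.134% and 0.233%, so mice 4 and 6 lay above every sham mouse and mouse 5 lay among them. The means were 0.127% ± 0.014 in sham and 0.224% ± 0.086 in Acu/LFES (SD, n = 3 each; two-sided exact permutation test, p = 0.3, adjusted p = 0.9).

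The higher share in mouse 6 went with the smaller share of miR-486-5p in that library. When miR-486-5p was left out of the total, miR-451a took 0.200%, 0.325% and 0.305% under sham against 0.554%, 0.320% and 0.281% under Acu/LFES. Only mouse 4, the deepest library, then lay above the sham range. After TMM scaling, likewise, miR-451a stood at 1050, 1792 and 1700 normalized CPM under sham against 2893, 1577 and 1333 under Acu/LFES. miR-451b, from the other strand of the hairpin, had between 0 and 21 counts in a mouse.

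miR-144 is processed from the same primary transcript as miR-451a, and its reads came almost wholly from the 5p strand. miR-144-5p had 74, 150 and 35 counts for sham mice 1, 2 and 3 and 761, 89 and 207 for Acu/LFES mice 4, 5 and 6. miR-144-3p, the strand with the seed that is nearly that of miR-101a-3p, had 0 counts in every sham mouse and 3, 0 and 1 in the Acu/LFES mice. Over all 6 libraries it made up 4 of 1320 miR-144 reads, or 0.303% (exact Clopper-Pearson 95% interval 0.0826% to 0.774%), an interval that takes reads as independent. In single mice with no read of it, a floor of 3 counts over the miR-144 reads of that mouse puts the limit on the 3p share at 4.05%, 2.0% and 8.57% for sham mice 1, 2 and 3, and at 3.37% for Acu/LFES mouse 5. The upper ends of the two-sided exact 95% intervals are wider, at 4.86% and 2.43% for sham mice 1 and 2 and 4.06% for Acu/LFES mouse 5, and 10% for sham mouse 3. A difference between the groups in the strand used was therefore not detectable at this depth. miR-101a-3p was itself counted in every library, with 58, 44 and 8 counts under sham against 200, 41 and 89 under Acu/LFES.

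The log2 ratios that involve miR-144-3p depend on the pseudocount of 0.5 that stands in for the counts of 0. The ratio of miR-144-3p to miR-144-5p differed by -0.25 between the groups (two-sided exact permutation test, p = 0.8, adjusted p = 0.9), and that of miR-451a to miR-144-3p by -0.048 (p = 0.7 by the same permutation test, adjusted p = 0.9). With miR-144-5p in place of the 3p strand, miR-451a had 6.47, 3.71 and 9.86 reads per read of miR-144-5p under sham against 4.18, 6.01 and 4.98 under Acu/LFES. The 3 Acu/LFES mice lay within the range of the sham mice.

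The ratio of miR-486-5p to miR-451a varied less among the sham mice than among the Acu/LFES mice. There were 403, 437 and 404 reads of miR-486-5p per read of miR-451a for sham mice 1, 2 and 3. In Acu/LFES mice 4, 5 and 6 there were 146, 434 and 73.2. Mouse 5 lay within the sham range, while mice 4 and 6 lay below all of them, mouse 4 with the highest normalized miR-451a and mouse 6 with the lowest normalized miR-486-5p. The log2 ratio was 8.69 ± 0.068 in sham and 7.38 ± 1.29 in Acu/LFES (SD, n = 3 each), a difference of -1.31 (two-sided exact permutation test, p = 0.3, adjusted p = 0.9). Leaving out single mice, the difference went from -2.00 to -0.72. The narrow sham range did not extend to the other member of the cluster, as there were 2606, 1624 and 3982 reads of miR-486-5p per read of miR-144-5p under sham against 611, 2606 and 364 under Acu/LFES.

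The 3p strand of miR-486 gives the same comparison without the dominant row. There were 3.41, 2.68 and 3.60 reads of miR-486a-3p per read of miR-451a under sham against 1.19, 2.96 and 2.29 under Acu/LFES. Mouse 5 again lay within the sham range and mice 4 and 6 below it. In mouse 6 the gap to the sham mice was smaller than with the 5p strand. Of all reads on the members, the miR-144 and miR-451a cluster took between 0.267% and 0.286% in the sham mice and 0.827%, 0.265% and 1.52% for Acu/LFES mice 4, 5 and 6.

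**Figure D2:**
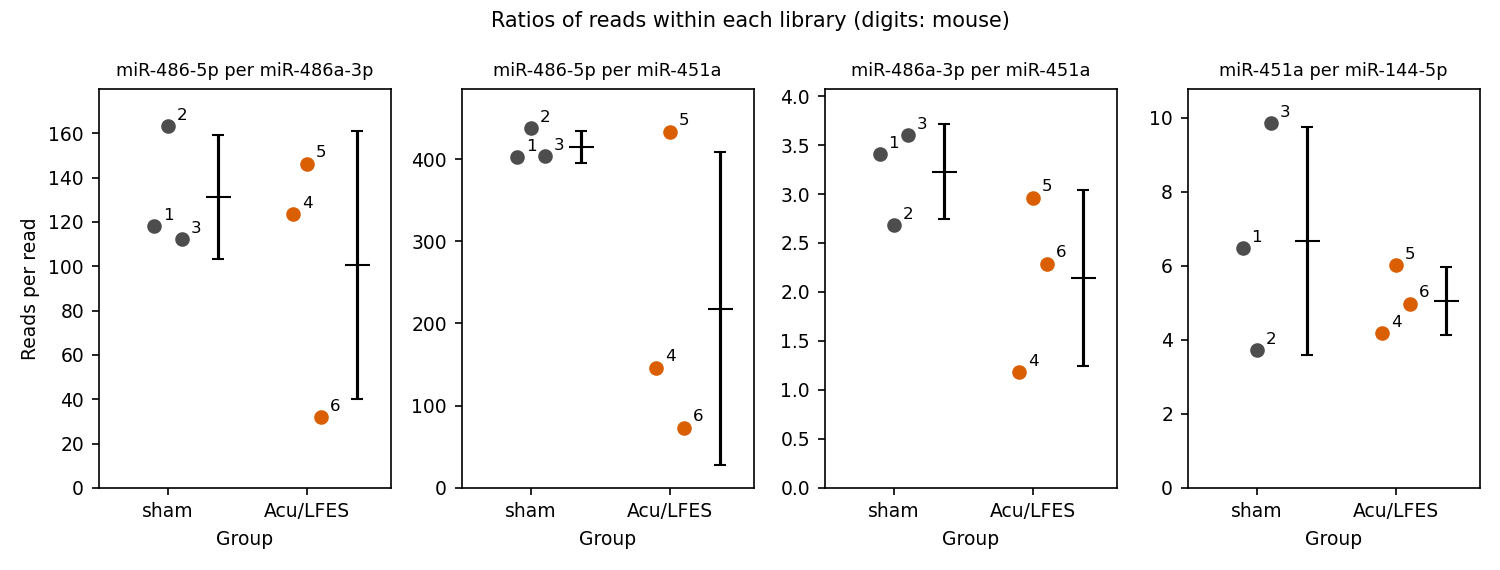
Reads of the first miRNA per read of the second in each library, from left to right miR-486-5p per miR-486a-3p, miR-486-5p per miR-451a, miR-486a-3p per miR-451a and miR-451a per miR-144-5p; dots are mice with their numbers, bars give mean ± SD of 3 mice, and every axis starts at 0. miR-486-5p per miR-451a lay between 403 and 437 in the sham mice and spread from 73.2 to 434 in the Acu/LFES mice.

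miR-23a-3p, which is little affected by red-cell rupture, is used as the denominator in a common measure of haemolysis in serum. There were 0.887, 2.10 and 2.85 reads of miR-451a per read of miR-23a-3p for sham mice 1, 2 and 3, and 2.12, 2.11 and 0.948 for Acu/LFES mice 4, 5 and 6. The lowest values were in sham mouse 1 and Acu/LFES mouse 6, so this ratio did not order the mice by group. On the log2 scale the means were 0.80 ± 0.87 in sham and 0.69 ± 0.67 in Acu/LFES (SD, n = 3 each; two-sided exact permutation test, p = 1.0, adjusted p = 1.0). The difference of -0.11 became 0.45 with miR-103-3p as the reference. The log2 ratio of miR-486-5p to miR-23a-3p was 9.50 ± 0.89 in sham and 8.08 ± 1.87 in Acu/LFES (SD, n = 3 each; two-sided exact permutation test, p = 0.2, adjusted p = 0.9), with mouse 6 lowest at 6.12 and mouse 3 highest at 10.16. No direct measure of haemolysis was given for these sera, and its part in these values was not tested.

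The groups were next compared by edgeR's quasi-likelihood test, which fitted all 258 miRNAs that passed its filter on low counts. Of the 6 distinct member rows 5 were tested, and miR-144-3p did not pass the filter. After adjustment by the Benjamini-Hochberg method 0 member rows had an adjusted p under 0.05, where 0% of all miRNAs tested had one. At an unadjusted p under 0.05 the count was again 0 of 5, against 8.53% of all miRNAs tested. The normalized CPM of the groups overlapped in all 5, while over all miRNAs tested the Acu/LFES mice lay wholly above the sham mice in 9.3% and wholly below in 8.14%. The median log2 fold change of the 5 rows, Acu/LFES over sham, was -0.37, against 0.05 for all miRNAs tested, which describes these rows and is not a test of them. This median is the value of miR-486b-3p, and the nearly identical row of miR-486a-3p also enters it. With the 3p rows added, values lay on both sides of 0.05. They were -0.65 for miR-486-5p, -0.36 for miR-486-3p, 0.36 for miR-451a and 0.58 for miR-144-5p.

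The 3 rows of miR-486 had negative fold changes (under total counts the sum of the 3p rows turned to 0.077) and those of the miR-144 and miR-451a cluster positive, and none passed the test. miR-486-5p stood at 422700, 783800 and 686600 normalized CPM for sham mice 1, 2 and 3 and at 423400, 683800 and 97540 for Acu/LFES mice 4, 5 and 6. Its log2 fold change was -0.65 (SE 0.59, adjusted p = 0.8098 in edgeR's test). It was -0.13 without mouse 6 and -1.28 without mouse 5, while the summed 3p rows ran from -0.54 to -0.14 as single mice were left out. miR-486a-3p stood at 3579, 4803 and 6119 normalized CPM under sham against 3428, 4672 and 3050 under Acu/LFES. Mice 4 and 6 lay just below the lowest sham mouse and mouse 5 among the sham mice. Its log2 fold change was -0.38 (SE 0.27, adjusted p = 0.7723 in edgeR's test), and that of miR-486b-3p was -0.37 (SE 0.27).

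miR-451a had a log2 fold change of 0.36 (SE 0.35, adjusted p = 0.8098 in edgeR's test), from means of 1514 ± 404 normalized CPM in sham and 1934 ± 839 in Acu/LFES (SD, n = 3 each). Without mouse 4 it was -0.042, so its sign rested on that mouse. miR-144-5p had a log2 fold change of 0.58 (SE 0.57, adjusted p = 0.8098 in edgeR's test), with 162.2, 482.5 and 172.4 normalized CPM under sham against 692.5, 262.3 and 267.6 under Acu/LFES. Sham mouse 2 exceeded Acu/LFES mice 5 and 6, and without mouse 4 the fold change was -0.020. Scaling by total counts shifted the median over all 258 from 0.05 to 0.52. Under that scaling miR-486-5p was at -0.40, miR-451a at 0.82 and miR-144-5p at 1.08, so miR-451a and miR-144-5p stayed above the median of all miRNAs and miR-486-5p stayed below it.

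**Figure D3:**
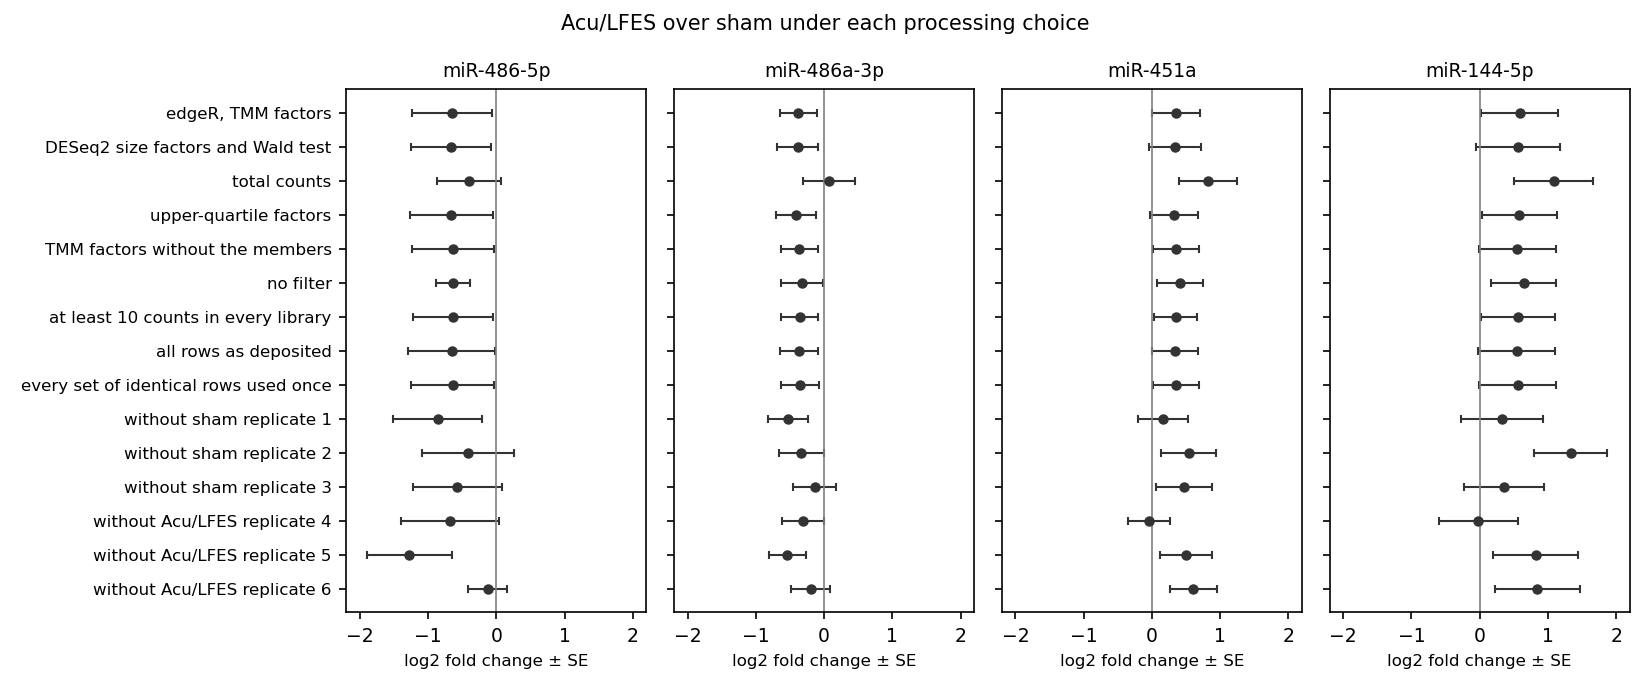
Log2 fold change of Acu/LFES over sham for miR-486-5p, miR-486a-3p, miR-451a and miR-144-5p, with its standard error, which for edgeR was derived from the test. The top row is edgeR with TMM factors, and each alternative is below it. miR-486-5p ran from -1.28 without Acu/LFES mouse 5 to -0.13 without Acu/LFES mouse 6, and miR-451a and miR-144-5p were at or near 0 without Acu/LFES mouse 4.

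Mouse-to-mouse spread set the members apart from each other. The pooled SD of log2 normalized CPM within groups was 1.09 for miR-486-5p, an 8.04-fold range between the lowest and the highest mouse. Among the 57 tested miRNAs with a mean of at least 500 counts, whose median SD was 0.304, only 1 had a larger SD. The SD of miR-486-5p was 0.469 in the sham mice and 1.46 in the Acu/LFES mice, where mouse 6 was lowest. For miR-486a-3p the pooled SD was 0.354, a 2.01-fold range, and 24 of the 57 had a larger SD. The SD of miR-486a-3p was 0.387 in the sham mice and 0.318 in the Acu/LFES mice. The strands of miR-486 thus differed in spread mostly among the Acu/LFES mice. This difference in spread was not tested, and neither was its cause. The pooled SD was 0.513 for miR-451a, with a 2.76-fold range, and 0.842 for miR-144-5p, with a 4.27-fold range. miR-144-5p had lower counts than miR-451a, down to 35 in mouse 3, and the part of counting error in its spread was not tested. Over all 258 miRNAs tested the median SD was 0.688.

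Across the 6 mice, members of the same locus had more similar profiles than members of different loci. Pearson's r of log2 normalized CPM was 0.824 between miR-451a and miR-144-5p and 0.78 between miR-486-5p and miR-486a-3p. Between the loci it went from -0.261 for miR-486a-3p with miR-144-5p to 0.273 for miR-486-5p with miR-451a. These are descriptions over 6 libraries that share their scaling, with mouse 6 lowest in both strands of miR-486 and mouse 4 highest in both members of the cluster. Among the 146 other miRNAs that reached 10 counts in each mouse, those most like miR-486-5p were miR-342-3p (r = 0.981), miR-130b-5p (0.959), miR-139-5p (0.957), miR-652-3p (0.913) and miR-8114 (0.903). miR-342-3p stood at 27.2 normalized CPM in mouse 6, against 118 to 302 in the other mice. Those most like miR-451a were miR-93-5p (r = 0.935), let-7i-5p (0.921), miR-140-3p (0.895), miR-186-5p (0.868) and miR-21a-5p (0.805), and all 5 were highest in mouse 4. Partners from the same locus were thus not the closest profiles, although those named here were picked as the highest of 146. All 5 named for miR-486-5p had a higher r with it than miR-486a-3p, at 0.78. With miR-451a, miR-93-5p, let-7i-5p, miR-140-3p and miR-186-5p had a higher r than miR-144-5p, at 0.824.

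**Figure D4:**
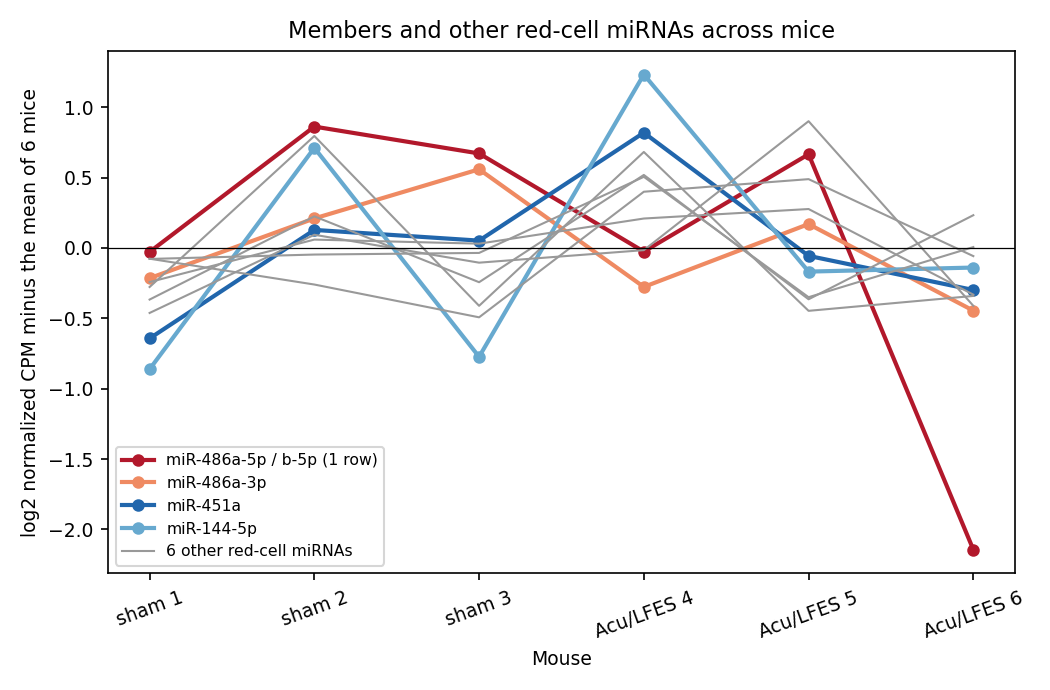
Log2 normalized CPM of miR-486-5p, miR-486a-3p, miR-451a and miR-144-5p in each mouse minus the mean of the 6 mice (colours), with the 6 tested miRNAs of the red-cell list in grey. miR-486-5p was lowest in Acu/LFES mouse 6, at 97540 normalized CPM against 422700 to 783800 in the other mice, while the grey lines show no gap of that size there.

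Other miRNAs known to be abundant in red cells were not as low in mouse 6 as miR-486-5p. The list held miR-16-5p, miR-15a-5p, miR-15b-5p, miR-92a-3p, miR-25-3p, miR-185-5p and miR-363-3p, of which 6 were counted in every mouse and tested, and miR-363-3p had 1 count in all, in mouse 6. Of the 6, 0 were called after adjustment and 0 at an unadjusted p under 0.05 in edgeR's test, with a median log2 fold change of 0.22, where the median over all 258 was 0.05. The groups did not overlap for miR-185-5p alone of the 6, with 131.5, 115.8 and 98.5 normalized CPM under sham against 182.9, 194.6 and 133.2 under Acu/LFES, where 9.3% of all miRNAs tested had such a gap upward. miR-16-5p, a common serum reference that red cells also carry, stood at 10950, 11190 and 11280 normalized CPM under sham against 16410, 9070 and 11610 under Acu/LFES. There were 38.6, 70.1 and 60.9 reads of miR-486-5p per read of miR-16-5p under sham against 25.8, 75.4 and 8.40 under Acu/LFES. The reads of miR-16-5p per read of miR-451a varied less, between 5.67 and 10.4 over the 6 mice. The summed level of the list was 86950 to 110600 normalized CPM in sham and 85500 to 143000 in Acu/LFES. Mouse 6 had the lowest sum, close to that of sham mouse 1. Of the 6 tested miRNAs only miR-25-3p was itself lowest in mouse 6, at 49510. There miR-16-5p, miR-15a-5p and miR-185-5p lay above every sham mouse by small margins, and miR-15b-5p and miR-92a-3p lay within the sham range.

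miR-486 is also a muscle miRNA, and markers of other cells were present in the same exosomes. The skeletal muscle list, miR-1a-3p, miR-133a-3p, miR-133b-3p and miR-206-3p, summed to 13920 to 16790 normalized CPM in sham and 10610 to 17620 in Acu/LFES, and this sum was highest in mouse 6. Of the list only miR-133a-3p was itself highest in mouse 6, at 11460. miR-1a-3p was highest in mouse 4, miR-206-3p in mouse 3 and miR-133b-3p in mouse 1. Of the 3 muscle miRNAs tested 0 were called, and none of the 4 was at 0 in all mice. White-cell and platelet miRNAs (miR-223-3p, miR-142a-3p and miR-150-5p) summed to 2729 to 5611 in sham and 3720 to 4558 in Acu/LFES. The liver miRNA miR-122-5p ran from 10100 to 31050 in sham and from 2574 to 21690 in Acu/LFES, with mouse 4 lowest. The endothelial miR-126a-3p ran from 340 to 732 and from 262 to 659. Its 5p strand, not on the list, was counted more, at 2928, 2963 and 2867 under sham against 2642, 1845 and 2080 under Acu/LFES. The Acu/LFES mice thus lay wholly below the sham mice (adjusted p = 0.6053 in edgeR's test), as in 8.14% of all miRNAs tested. For miR-142a-5p, also more counted than its listed strand, the groups overlapped, at 4188 to 6631 in sham and 2638 to 5805 in Acu/LFES. The part of these cells in the values of miR-486 and miR-451a was not tested. In bulk serum exosomes, the number of vesicles from any cell type, red cells and muscle included, and the miRNA in each such vesicle cannot be told apart.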

How the data were processed

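The authors made small RNA libraries (SeqMatic TailorMix) from exosomes of 6 mice and deposited raw read counts per mature miRNA, with no normalization. Submitters' processing notes name bcl2fastq 1, cutadapt 1.6 and DESeq2 1.26.0 without a role. The aligner, counter, annotation and mismatch rule are not given in the sources used here, so reads of near-identical rows could be split or repeated. With edgeR 4.0.16 (R 4.3.3), TMM factors, normalized CPM and the quasi-likelihood test were obtained from the counts, with Benjamini-Hochberg adjustment, after its default filter and with identical miR-486-5p rows used a single time. Shares and log2 ratios (pseudocount 0.5) went through two-sided exact permutation tests over 20 splits, a family of 9. Intervals are exact Clopper-Pearson. The SE of an edgeR fold change was derived from its test, as the size of the log2 fold change over the square root of F. Replicates were separate mice. The named miRNAs were the members, other rows of these loci, the red-cell and marker lists, miR-23a-3p and the 5 most similar profiles. Added to them were miR-101a-3p, miR-103-3p, miR-25-5p, miR-126a-5p and miR-142a-5p. Members and lists were chosen with earlier results of these data known. Scripts were tested on simulated data. Alternatives were DESeq2 1.42.0, total counts, upper-quartile factors, TMM factors without the members, other filters, other row handling, a pseudocount of 1, miR-103-3p as reference and each mouse left out. Figures used matplotlib 3.10.9.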

Additional observations from a re-analysis of the deposited data

How the results depend on the processing

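Of 143 values recomputed under an alternative, 12 changed sign. The 143 include the number of members called under each alternative, which was always 0 and has no sign to change. No edgeR or DESeq2 fold change of a member passed an adjusted p of 0.05 under any alternative run. The shares and ratios could not pass 0.05 under any setting, since their exact test has a smallest p of 0.1, so their side of the threshold says nothing about stability. With total counts the log2 fold change of miR-486-3p turned to 0.077, with a pseudocount of 1 the log2 ratio of miR-451a to miR-144-3p turned to 0.42, and with miR-103-3p as reference that of miR-451a to miR-23a-3p turned to 0.45. When single mice were left out, log2 fold changes ran from -1.28 to -0.13 for miR-486-5p, -0.54 to -0.14 for miR-486-3p, -0.042 to 0.61 for miR-451a and -0.020 to 1.33 for miR-144-5p. The negative ends of the last 2 were without mouse 4, and the high end of miR-144-5p was without mouse 2. The log2 ratios went from -1.05 to 0.053 for miR-486-5p to miR-486-3p, -0.77 to 0.27 for miR-144-3p to miR-144-5p, -0.24 to 0.13 for miR-451a to miR-144-3p, -2.00 to -0.72 for miR-486-5p to miR-451a, -0.60 to 0.28 for miR-451a to miR-23a-3p and -2.30 to -0.44 for miR-486-5p to miR-23a-3p. The share difference went from -21.92 to -1.41 points for miR-486-5p, -21.66 to -1.35 for all members and 0.056 to 0.142 for miR-451a. The cause of these changes was not tested.

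Over all miRNAs, edgeR called 0 and DESeq2 11 at an adjusted p under 0.05, against 22 and 31 at an unadjusted p, and 0 of these 11 were members. With no filter 53 of 953 miRNAs had an unadjusted p under 0.05, miR-486-5p among them (adjusted p = 0.5676 in edgeR), and the median log2 fold change was 0.70. Without mouse 2, miR-144-5p had an unadjusted p of 0.03633 (adjusted p = 0.5173 in edgeR). With total counts 26 of 26 such miRNAs were higher, against 14 of 22 with TMM factors. Chosen after seeing the data, miR-144-5p in place of the 3p strand gave a log2 ratio difference of -0.30 to miR-451a, and members without miR-486-5p differed in share by -0.13 points. Depth limits miR-144-3p, which had no fold change in the filtered fits. No paired analysis was possible because the mouse numbers are not shared between the groups.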
